A study of Rattus norvegicus with 8 samples.

Results

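Ocm, Ldoc1, Uchl1 and Tmem59l are 4 genes that were chosen because their RNA was about 4-fold higher in vinclozolin lineage than in control lineage whole prostate, with little or no such difference in prostate epithelium, and because they are not counted among immune genes. All probe sets annotated to exactly 1 of these symbols were taken. A probe set is a group of short probes on an array that together read 1 transcript. Each gene had 1 probe set, so they make up 4 of 14218 named genes and 4 of 31099 probe sets. All 4 passed the filter on dim values, as did 21729 probe sets in all. The choice used the levels in all 4 groups of arrays, so these levels are described below without a test.

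The rats were Sprague-Dawley males of generation 3. Pregnant females of the founder generation were injected intraperitoneally on gestation days 8 to 14, and later generations were bred without stated treatment. Vinclozolin is a fungicide with antiandrogenic activity, and the study asked how the prostate transcriptome of such descendants differs from that of controls. Whole ventral prostate was taken at an age of 180 days and ventral prostate epithelium at 45 days, each from both lineages, which gives 4 groups of 2 arrays. The treatment text names only the vehicle DMSO for all 8 samples, so the lineages are those of the sample titles. Every epithelium sample pooled 11 animals, and every whole prostate sample pooled several, in a number not stated. Whether the replicates of a group shared animals is not stated, so p-values cover only the spread between the arrays, and that spread may be technical. Age and preparation differ together and cannot be told apart.

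The 4 genes belong to unrelated families. Ocm encodes oncomodulin, a small calcium-binding protein of the parvalbumin family. It is known from outer hair cells of the ear, from some tumours and from activated macrophages, and in the rat a long terminal repeat of retroviral origin has been described as its promoter. Ldoc1 encodes a small nuclear leucine zipper protein whose gene, on the X chromosome, descends from the Gag gene of a retrotransposon. Uchl1 encodes a ubiquitin C-terminal hydrolase that is abundant in neurons, where it is used as a marker of nerve fibres, and in the germ line of the testis. Tmem59l encodes a membrane protein of the Golgi that is enriched in brain and resembles TMEM59, a protein with a role in autophagy.

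The sequence upstream of each start is shown first. The 4 genes stand together through their choice, which does not imply a common control. The 250 bases before the start listed in RefSeq on build GRCr8 are printed 5′ to 3′ in the direction of transcription, in lower case, and matches to the motifs searched are in capitals. The window of Ocm is chr12:15700376-15700625 on the plus strand, that of Ldoc1 chrX:145001517-145001766 on the plus strand, that of Uchl1 chr14:41849418-41849667 on the minus strand, and that of Tmem59l chr16:18975381-18975630 on the plus strand.
Ocm: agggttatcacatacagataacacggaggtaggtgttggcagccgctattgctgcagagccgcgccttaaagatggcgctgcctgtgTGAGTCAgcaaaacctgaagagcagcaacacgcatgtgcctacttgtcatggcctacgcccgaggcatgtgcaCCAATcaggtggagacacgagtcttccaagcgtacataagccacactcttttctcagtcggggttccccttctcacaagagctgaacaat
Ldoc1: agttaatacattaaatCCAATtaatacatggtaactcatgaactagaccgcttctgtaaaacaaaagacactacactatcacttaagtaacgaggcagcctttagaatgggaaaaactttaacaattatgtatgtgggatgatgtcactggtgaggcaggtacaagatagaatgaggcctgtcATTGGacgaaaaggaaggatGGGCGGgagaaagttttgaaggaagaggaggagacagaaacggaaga
Uchl1: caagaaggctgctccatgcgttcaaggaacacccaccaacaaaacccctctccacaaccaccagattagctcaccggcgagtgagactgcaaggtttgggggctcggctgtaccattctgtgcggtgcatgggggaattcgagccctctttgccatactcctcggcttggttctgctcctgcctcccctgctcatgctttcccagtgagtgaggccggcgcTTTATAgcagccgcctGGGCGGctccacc
Tmem59l: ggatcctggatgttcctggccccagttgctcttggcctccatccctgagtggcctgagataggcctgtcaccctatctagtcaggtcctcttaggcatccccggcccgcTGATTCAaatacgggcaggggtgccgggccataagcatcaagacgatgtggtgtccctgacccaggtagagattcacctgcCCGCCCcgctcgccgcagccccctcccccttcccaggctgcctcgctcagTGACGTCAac

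Both strands were searched for 8 motifs, and no matches overlapped. Ocm and Tmem59l each matched the AP-1 pattern (TGANTCA, where N is any base), as did 6.34% of the 33469 windows of all RefSeq genes. The match was TGAGTCA in Ocm, 163 to 157 bases before the start, and TGATTCA in Tmem59l, 141 to 135 before it. Their middle bases differ, so they are not the same sequence. Ldoc1, Uchl1 and, on the reverse strand, Tmem59l held a GC box (GGGCGG), which 30.5% of windows have. Ocm held 1 and Ldoc1 held 2 CCAAT boxes (CCAAT, in 34.0% of windows), and Uchl1 held a TATA box on the reverse strand (TATAAA, in 12.9% of windows) at 29 to 24 bases before its start. Tmem59l held a cAMP response element (TGACGTCA, in 1.59% of windows) at 10 to 3 bases before the start. The hexamer of the androgen response element (AGAACA, in 17.5% of windows), the interferon-stimulated response element (in 3.41%) and the E-box (CACGTG, in 5.59%) matched none of the 4 windows, which says only that these letters are not there. No motif was found in all 4.

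**Figure D1:**
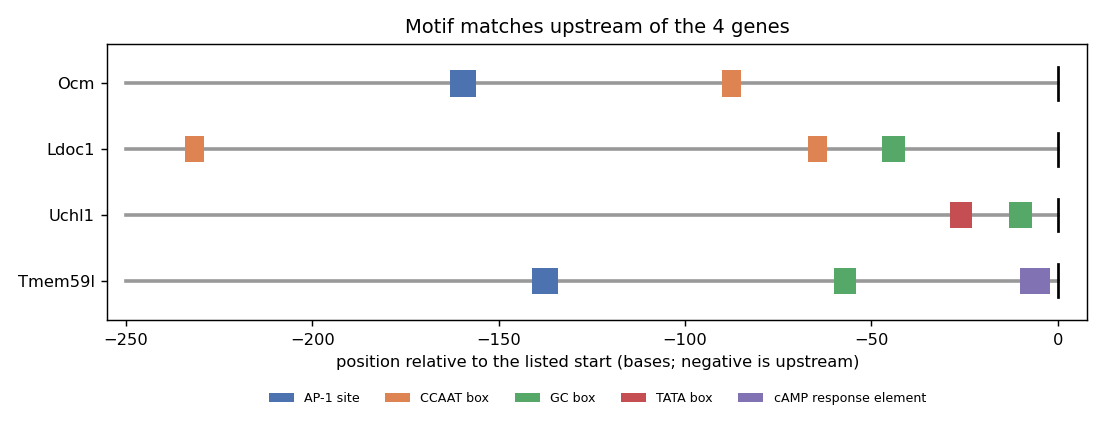
Motif matches in the 250 bases before the start of each gene. The horizontal axis is the distance from the start in bases, each grey line is 1 window, and each coloured block is a match. No motif is present in all 4 windows. Ocm and Tmem59l each match the AP-1 pattern searched, with different middle bases.

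The windows differed in base composition. G and C made up 53.2% of the Ocm window, 40.0% of Ldoc1, 59.6% of Uchl1 and 62.8% of Tmem59l, against a median of 51.2% over all windows. Ocm, Uchl1 and Tmem59l each held 11 CpG dinucleotides and Ldoc1 held 5, which is also the median. The Ldoc1 window resembled others: BLAST aligned 43 other windows to it, over 47 to 128 bases at 72.7% to 94.6% identity, 26 of them on the same strand. None of those genes had a tested probe set. For Ocm 1 window aligned, over 72 bases at 76.4% identity, and for Uchl1 and Tmem59l 0 did. The genes span 272729 bases for Ldoc1, 60924 for Ocm, 10885 for Uchl1 and 4138 for Tmem59l in the RefSeq table. Each window lies at the single start listed there, and the start used in prostate was not measured. Which transcript model of Ldoc1 its probe set reads is not known, so the Ldoc1 window may not lie just upstream of the RNA measured.

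Levels are compared between arrays within a probe set, not between probe sets. Deposited intensities (linear) of Ldoc1, the Gag-derived nuclear protein gene, were 438 and 397 in whole prostate control and 2127 and 1867 in whole prostate vinclozolin. In epithelium they were 779 and 676 in controls and 602 and 558 in the vinclozolin lineage. Both whole prostate vinclozolin arrays thus lay far above the other 6, and the 4 groups did not overlap. Of all probe sets tested 53.9% had lineages apart in either direction in whole prostate and 39.4% in epithelium. The share with all 4 groups apart was not counted. The ratio of mean Ldoc1 intensities was 4.79 in whole prostate, while in epithelium the control mean was 1.26-fold the vinclozolin mean.

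Ocm, the gene of the calcium-binding oncomodulin, had intensities of 226 and 225 in whole prostate control and of 1121 and 1044 in whole prostate vinclozolin. In epithelium it read 321 and 311 in controls and 214 and 245 in the vinclozolin lineage. The whole prostate vinclozolin arrays were again the highest, and in epithelium both vinclozolin arrays lay below both controls. Mean intensity was 4.81-fold higher in whole prostate vinclozolin than in its control, and 1.38-fold higher in epithelium control than in epithelium vinclozolin.

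Uchl1, the hydrolase gene, read 111 and 133 in whole prostate control and 532 and 550 in whole prostate vinclozolin. Its intensities in epithelium were 137 and 142 in controls and 230 and 216 in the vinclozolin lineage. Uchl1 was the only one of the 4 whose vinclozolin arrays lay above the controls in both preparations. Of all probe sets tested 26.1% lay apart in this direction in whole prostate and 19.7% in epithelium. The share with both was not counted. The ratio of means was 4.43 in whole prostate and 1.60 in epithelium.

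Tmem59l, the Golgi membrane protein gene, read 21.2 and 33.0 in whole prostate control and 192 and 197 in whole prostate vinclozolin, a ratio of means of 7.17. In epithelium the intensities were 48.2 and 27.6 in controls and 38.1 and 37.3 in the vinclozolin lineage, and the groups overlapped. Outside the whole prostate vinclozolin group, its probe set ranked between the 43.4th and the 55.5th percentile of all probe sets on an array. On the whole prostate vinclozolin arrays it ranked at the 80.9th and 81.5th. On each array 28.3% to 36.8% of probe sets read under 16, so Tmem59l lay not far above the dim part of the range outside that group. The file gives no call of presence or absence.

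**Figure D2:**
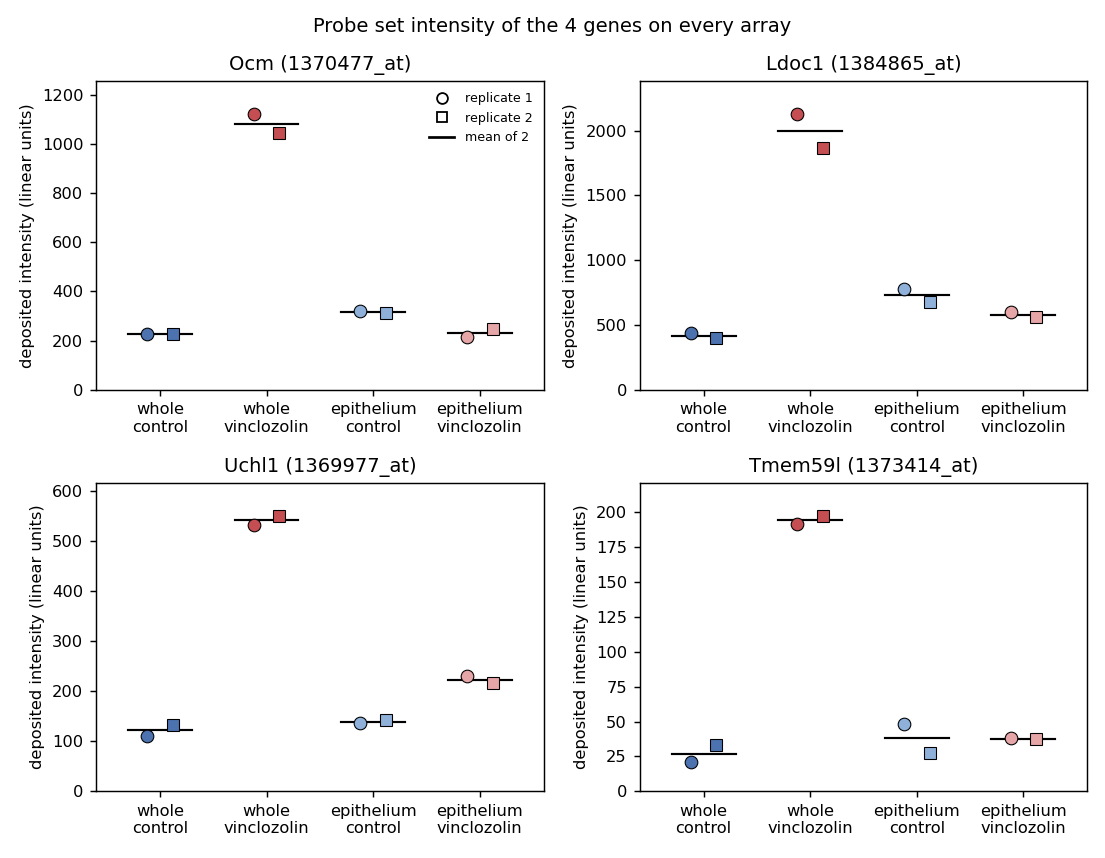
Deposited intensity (linear units, axes from 0) of the 4 probe sets on each of the 8 arrays. Circles and squares are replicates 1 and 2 and the black line is their mean; for each gene both whole prostate vinclozolin arrays are the highest, from 192 and 197 for Tmem59l to 2127 and 1867 for Ldoc1.

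On the normalised log2(intensity + 16) scale, on which all following levels and differences are given, the whole prostate difference, vinclozolin minus control, was 2.24 for Ldoc1, 2.17 for Ocm, 2.17 for Tmem59l and 1.98 for Uchl1. The smallest difference between any vinclozolin and any control array was 2.12 for Ocm, 2.08 for Ldoc1, 1.96 for Tmem59l and 1.84 for Uchl1. The largest gap between the arrays of 1 whole prostate group was 0.36, for Tmem59l in control. All 4 thus had whole prostate groups that did not overlap, with vinclozolin higher, as their choice implies. Of all probe sets tested 26.1% lay apart in this direction and 53.9% in either. The limma test of all probe sets called 1.74% in either direction and 0.819% as higher (adjusted p under 0.05), that is 178 higher of 379; with median centring 178 of 493 were higher. Calls of the 4 genes are not read, since the genes were chosen on this contrast. In tissue RNA, more cells that express a gene and more RNA per cell cannot be told apart. The signal of the 3′ over the 5′ control probe set of beta-actin, a measure of RNA integrity, was 3.74 and 3.98 in whole prostate control, 3.37 and 3.14 in whole prostate vinclozolin, and 2.26 to 2.57 in epithelium. Its part in the differences was not tested.

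In epithelium the differences were -0.45 for Ocm, -0.31 for Ldoc1, 0.65 for Uchl1 and -0.02 for Tmem59l. The groups did not overlap for Ocm and Ldoc1, lower in the vinclozolin lineage, and for Uchl1, higher in it; 39.4% of all probe sets had groups apart in either direction and 19.7% with vinclozolin higher. For Uchl1 the differences of single array pairs ran from 0.59 to 0.71. For Tmem59l they ran from -0.28 to 0.23, and its control arrays alone were 0.51 apart. The epithelium difference minus the whole prostate difference was -2.62 for Ocm, -2.55 for Ldoc1, -2.19 for Tmem59l and -1.33 for Uchl1. Over all probe sets limma called this difference of effects for 0.29%, and the calls of the 4 genes are again not read.

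The order of the 4 groups differed between the genes below the highest one. Ocm was at 7.88 ± 0.00 (SD, n = 2 here and below) in whole prostate control, 7.96 ± 0.14 in epithelium vinclozolin, 8.41 ± 0.03 in epithelium control and 10.05 ± 0.07 in whole prostate vinclozolin, and the lowest pair of groups overlapped. Ldoc1 was at 8.70 ± 0.10, 9.27 ± 0.08, 9.58 ± 0.14 and 10.94 ± 0.14 in that same order of groups, with none overlapping. How many of all probe sets have 4 such separate groups was not counted. Uchl1 was lowest in whole prostate control at 7.11 ± 0.14, followed by epithelium control at 7.28 ± 0.02, epithelium vinclozolin at 7.92 ± 0.06 and whole prostate vinclozolin at 9.09 ± 0.05. Its first 2 groups did not overlap but lay only 0.05 apart at their nearest arrays. Tmem59l was at 5.55 ± 0.25, 5.62 ± 0.00 and 5.64 ± 0.36 in whole prostate control, epithelium vinclozolin and epithelium control, which all overlapped, and at 7.72 ± 0.04 in whole prostate vinclozolin.

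Across the control groups, epithelium minus whole prostate was 0.89 for Ldoc1, 0.53 for Ocm, 0.17 for Uchl1 and 0.09 for Tmem59l. The arrays lay apart for Ldoc1, Ocm and Uchl1, as they did for 66.6% of all probe sets. With median centring of each array in place of quantile normalisation these were 0.54, 0.23, -0.06 and 0.07, so the direction for Uchl1 depends on the scaling. Replicates of a group did not rank the genes alike. In whole prostate vinclozolin, Ocm and Ldoc1 were higher on replicate 1, while Uchl1 and Tmem59l were higher on replicate 2. Ocm and Ldoc1 had the same replicate higher in 3 of 4 groups, Ocm and Uchl1 in 0 of 4, and the other pairs in 1 or 2 of 4.

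Among probe sets with 1 gene symbol, ordered by the whole prostate difference, Ldoc1 was in place 5, Ocm 7, Tmem59l 8 and Uchl1 10. Just above lay the ubiquitin-like modifier protease Usp18 (2.41) and RT1-Ba of the major histocompatibility complex (2.25). Between the 4 lay Mcpt1l1 of the mast cell proteases (2.22) and the inositol transporter Slc5a11 (2.15), and just below lay LOC102546992 (1.89) and the interferon-induced Ifi27l2b (1.88). Slc5a11 differed by 2.45 in epithelium, LOC102546992 by 0.54, and the remaining 4 by -0.34 to 0.50. In all, 17 probe sets, 10 with a symbol, reached the difference of Uchl1, and 14 of them, 7 with a symbol, had an epithelium difference of 0.5 or less. Uchl1 itself, at 0.65 in epithelium, was not among these 14, while Ldoc1, Ocm and Tmem59l were.

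**Figure D3:**
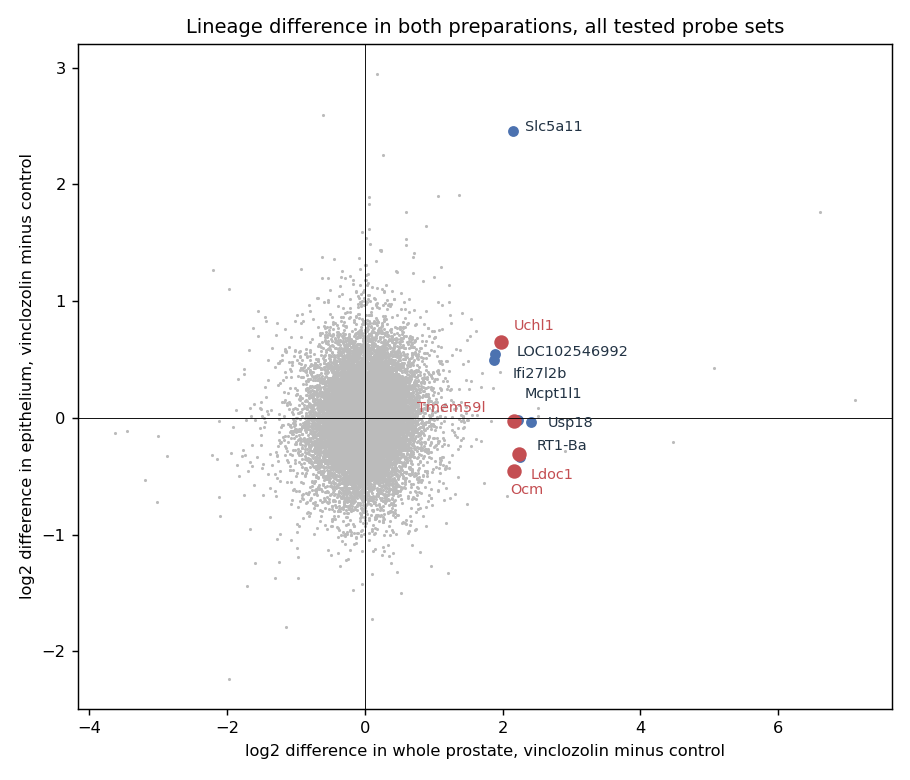
Log2 difference, vinclozolin minus control, in whole prostate (horizontal) and in epithelium (vertical) for each of the 21729 probe sets tested (grey). The 4 genes are red and the named genes next to them in rank are blue; the 4 lie at 1.98 to 2.24 in whole prostate and at -0.45 to 0.65 in epithelium.

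The probe sets most like each member were found by the Pearson correlation r of normalised log2 levels over the 8 arrays, 3 genes per member. The whole prostate vinclozolin arrays stand apart from the rest for every member, so r is also given over the other 6 arrays. RT1-Ba (r = 0.986, and 0.72 over the other 6), the palmitoyltransferase gene Zdhhc4 (0.986 and 0.72) and LOC100910973 (0.984 and 0.72) were most like Ocm. For Ldoc1 they were the serine synthesis gene Psat1 (0.988, and 0.958 over the other 6), the autophagy gene Atg10 (0.985 and 0.996) and the mitochondrial ribosomal gene Mrps2 (0.979 and 0.898). Atg10 had its groups in the same order as Ldoc1, at low levels of 4.75 in whole prostate control, 5.23 in epithelium vinclozolin, 5.47 in epithelium control and 6.14 in whole prostate vinclozolin.

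Uchl1 was most like Ergic3 (r = 0.981, and 0.95 over the other 6), a gene of transport between endoplasmic reticulum and Golgi, Tmbim6 (0.980 and 0.937), and Plekhb2 (0.979 and 0.902). Their whole prostate differences were 0.38, 0.36 and 0.92, well below the 1.98 of Uchl1. Tmem59l was most like the myeloid transcription factor gene Irf8 (0.988, and 0.471 over the other 6), RT1-Ba (0.986 and 0.623) and the interferon-induced Ifi27 (0.983 and 0.120). With r over 0.95 there were 20 genes for Ocm, 10 for Ldoc1, 30 for Uchl1 and 28 for Tmem59l. The names depend on the scaling: with the values as deposited 3 of the 12 were still among the 3 of highest r, with median centring 4, and with 1 array left out 5 to 10.

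The closest relatives of the 4 genes were not higher with them. Pvalb, which encodes parvalbumin, a calcium buffer of fast muscle and some neurons, was too dim to be tested. It read 40.1 and 29.4 in whole prostate control, 3.20 and 4.10 in whole prostate vinclozolin and 0.90 to 8.0 in epithelium, so its levels lay apart in whole prostate in the direction opposite to Ocm. Rtl6, another Gag-derived gene, differed by 0.02 ± 0.12 (SE, n = 2 per group) in whole prostate. Uchl3, a hydrolase of the same family as Uchl1, differed by -0.18 ± 0.11, and Tmem59 by 0.01 ± 0.10. These 3 were not called in limma (adjusted p = 0.939, 0.420 and 0.977), nor were they in epithelium, where they differed by -0.02, 0.05 and -0.03 (limma adjusted p = 0.970, 0.894 and 0.955).

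**Figure D4:**
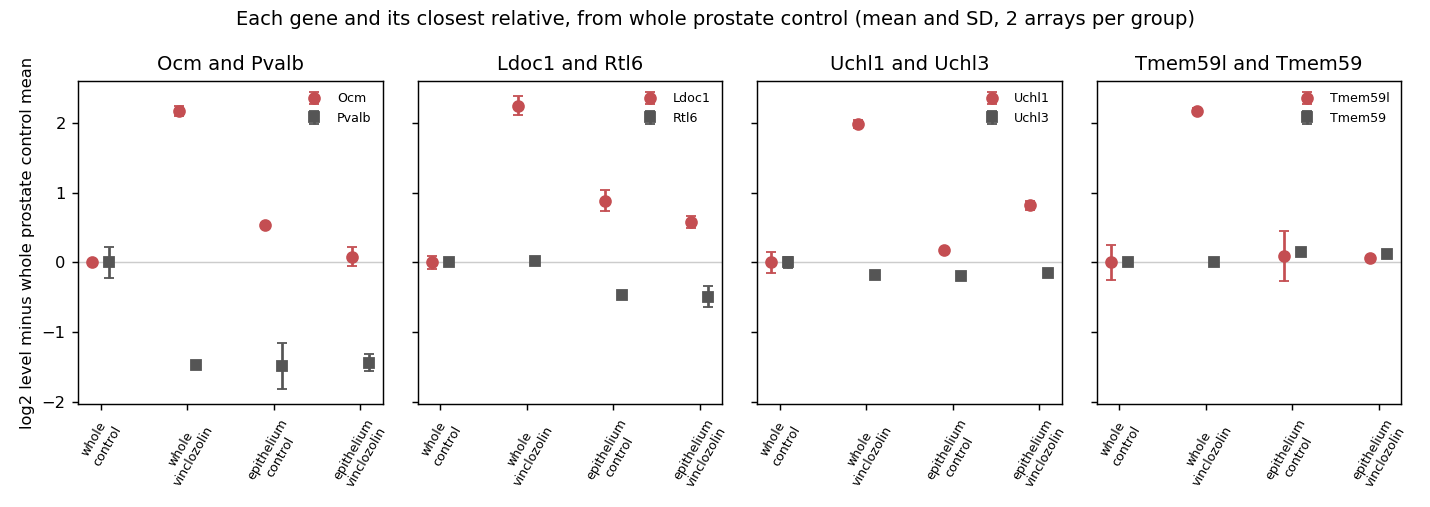
Mean log2 level of each gene (red circles) and its closest relative (grey squares) in the 4 groups, as the difference from the gene's own mean in whole prostate control, with bars of 1 SD over 2 arrays. The 4 genes stand at 1.98 to 2.24 in whole prostate vinclozolin, where Rtl6, Uchl3 and Tmem59 lie at 0.02, -0.18 and 0.01 and Pvalb lies below 0.

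Genes of the families and processes around each member were counted next. Of the 18 small EF-hand calcium-binding genes tested, 0 were called higher and 1 lower in whole prostate: Tnnc2, fast troponin C of skeletal muscle, fell by 1.95 ± 0.11 (limma adjusted p = 0.00152). Of 18 genes of ubiquitin and its proteases 1 was called, Usp18, which acts on the interferon-induced modifier ISG15 and rose by 2.41 ± 0.19 (limma adjusted p = 0.00381). That call was lost without whole prostate control replicate 2 (adjusted p = 0.0518). Of 6 tested genes listed as derived from retrotransposons or retroviruses, not all of them from Gag, 0 were called. Pnma1 measured 0.58 ± 0.26 and Zcchc12 0.63 ± 0.41. Of 23 Golgi and autophagy genes 1 was called, Map1lc3a, a component of autophagosome membranes, which rose by 1.00 ± 0.16 (limma adjusted p = 0.0404), a call lost on leaving out any of the 8 arrays (adjusted p from 0.0521 to 0.239). The medians of these lists were 0.05, 0.04, 0.42 and 0.15 in that order, against -0.01 over all probe sets. That of the genes derived from retrotransposons or retroviruses depended on the added constant, at 0.97 with a pseudocount of 1 and 0.17 with 64. Among all probe sets 0.819% passed as higher and 0.925% as lower, 1.74% in sum. In epithelium 0 genes of any list described here were called by limma, where 0.0092% of all probe sets were, 0.0046% in each direction, and 2471 had an unadjusted p under 0.05.

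Uchl1 and Tmem59l are known from nerve tissue, so markers of nerve were read beside them. Of 17 neuron genes tested 0 were called, 9 had a positive difference and the median was 0.13. The differences ran from -0.77 ± 0.31 for Gap43, a growth cone protein, to 0.54 ± 0.34 for Npy, neuropeptide Y. An unadjusted limma p under 0.05 was seen for 3 of the 17, all with negative differences (Rtn1, Gap43 and Prph). Of all 21729 probe sets tested 4067 had such a p in whole prostate, a similar share. Intensities of a cell type's genes were also summed per array, a total in which bright probe sets weigh most. For the 27 neuron genes on the array it was 789 and 819 in whole prostate control, 781 to 893 in whole prostate vinclozolin and 1107 to 1293 in epithelium. Vamp2 made up 33.5% to 41.1% of this sum on the whole prostate arrays, and Thy1 is also on the fibroblast list. Stmn2, Snap25 and Chat read under 16 on every array. Of 6 neuroendocrine genes 0 were called (median -0.16), their sum over 15 genes was 365 to 407 and 358 to 413 in the whole prostate groups, and Chga, Scg2, Pcsk2 and Nts read under 16 throughout. Of 8 Schwann cell and glia genes 1 was called: Pmp22, a myelin protein, fell by 0.76 ± 0.11 (limma adjusted p = 0.0261, and 0.0525 to 0.191 with an array left out). The median of that list was -0.12, and its sum over 12 genes was 2639 and 2640 in whole prostate control against 2675 and 2684 in vinclozolin, with Foxd3 under 16 on every array. Mal made up 37.6% to 38.6% of this sum in whole prostate control and 54.9% to 55.1% in vinclozolin. Without Mal the sum was lower in vinclozolin, at 1206 to 1207 against 1622 to 1648 in control.

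Of the leukocyte markers 2 were called in whole prostate, both higher. The median of the macrophage and neutrophil list was positive, while its sum was lower in vinclozolin, a direction that turned without Lyz2. Of 17 macrophage and neutrophil genes 2 were called higher in whole prostate vinclozolin, Csf1r (1.11 ± 0.15) and Fcgr3a (1.17 ± 0.19), receptors for a growth factor and for immunoglobulin, at limma adjusted p of 0.0261 and 0.0404, with a list median of 0.53 and 13 of 17 differences positive. Among all probe sets 0.819% were called higher. With a pseudocount of 1, or without the filter, 0 genes of this list were called, and with a pseudocount of 64 5 were called higher and 2 lower. The call of Csf1r was lost on leaving out any array (adjusted p from 0.0521 to 0.163), that of Fcgr3a for 6 of 8 (0.0289 to 0.217). The summed intensity of 19 such genes was 7781 to 8442 in control and 5870 to 6621 in vinclozolin, hence lower. Lyz2, lysozyme, which measured -0.86 ± 0.16, made up 58.6% to 72.8% of it on the whole prostate arrays, and without Lyz2 the sum was 2114 to 2308 in control and 2429 to 2452 in vinclozolin. Cxcr2 read under 16 throughout. Of 9 lymphocyte genes 0 were called (median 0.63, 8 of 9 differences positive, and 2 called higher with a pseudocount of 64). Their sum over 15 genes was 248 to 271 in control, 483 to 487 in vinclozolin and 216 to 293 in epithelium, with Cd79b and Gzmb under 16 throughout. The part of these cells in the levels of Ocm, Ldoc1, Uchl1 and Tmem59l was not tested.

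Several skeletal muscle genes fell in whole prostate vinclozolin. Of 16 skeletal muscle genes 7 were called lower and 0 higher in whole prostate (median -1.38), among them the myosin light chain gene Myl1, which fell by 2.87 ± 0.16 (limma adjusted p = 0.00144). The count was 3 of 14 with a pseudocount of 1 and 12 of 16 with 64, where the median was -0.81. Their sum over 17 genes was 3730 to 3968 in control, 1750 to 1812 in vinclozolin and 7092 to 8289 in epithelium, where Acta1 alone made up 53.9% to 58.2% of it. Between the control groups 10 of the 16 genes were called lower and 3 higher in epithelium (median -1.35), so that sum does not follow most of its genes. Of 8 genes of other sex accessory glands 3 were called lower (median -0.97, sum over 11 genes 12118 to 12595 and 6276 to 6958), with Pax8 under 16 throughout. With a pseudocount of 1 the count was 2 of 7, and with 64 it was 4 of 8. In epithelium 0 of the 8 were called, and all 8 differences were positive (median 0.56). Among all probe sets 0.925% were called lower in whole prostate. Luminal epithelium genes (11 tested), basal epithelium (9), smooth muscle (11) and fibroblast genes (11) had 0 calls in whole prostate and medians of -0.06, -0.11, -0.32 and -0.11, and none of their genes on the array read under 16 on every array. Their sums in whole prostate control and vinclozolin were 36638 to 37075 and 40503 to 42159, 983 to 1006 and 1011 to 1027, 7334 to 7555 and 7586 to 7947, and 3621 to 3658 and 3319 to 3410. Mylk made up 63.8% to 73.1% of the smooth muscle sum on these arrays. Without Mylk that sum was 2629 to 2656 in control and 2041 to 2147 in vinclozolin, hence lower. The basal sum turned likewise without Krt15, at 709 to 715 in control and 677 to 687 in vinclozolin. Without their brightest genes the luminal and fibroblast sums kept their directions. The part of these cell types in the levels of the 4 genes was not tested. The epithelium samples carried luminal markers at sums of 43687 to 47272. They also read higher than whole prostate control for 8 of 11 smooth muscle and 10 of 11 fibroblast genes (limma, control groups, 27.8% of all probe sets called, 12.9% higher and 15% lower), so these samples were not free of stroma. With median centring 2246 of 7782 calls were higher, against 2801 of 6051.

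The genes next to the 4 on their chromosomes, in the order of the RefSeq table, were read as well. The nearest tested genes around Ocm were Lmtk2, at 0.11 ± 0.14 and 0.21 ± 0.20 on its probe sets, and Ccz1 at -0.04 ± 0.11 in whole prostate. Those around Uchl1 were Limch1, at -0.32 to -0.05 on 3 probe sets, and Apbb2, at 0.14 to 0.24 on 3. Those around Tmem59l were Rex1bd at 0.09 ± 0.12 and Klhl26 at 0.16 ± 0.15. Around Ldoc1 the nearest tested genes lay 9 genes before and 72 genes after it, Hapstr2 at -0.67 ± 0.26 and Fmr1 at -0.52 ± 0.20. Of these 8 genes 0 were called in limma (adjusted p from 0.239 to 0.899), against the 1.74% of all probe sets.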

How the data were processed

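RNA of 8 pooled samples was measured on Affymetrix rat expression arrays after biotin labelling, per the labels' protocols. The deposited table gives an intensity per probe set, on a linear scale, and no source used here names its software. By its values, with a 2% trimmed mean near 125 on every array, the authors scaled the arrays alike. The 57 control probe sets were left out, log2(intensity + 16) was quantile normalised, and probe sets under the 30th percentile of mean level were left out, which kept 21729. The added 16 lowers the differences of dim probe sets. Group means of all 8 arrays were fitted with limma 3.58.1 in R 4.3.3 (4 residual degrees of freedom), with Benjamini-Hochberg adjustment over all probe sets tested. The fit was tested on simulated data. Alternatives changed the added constant, the filter, the normalisation, the variance prior, the arrays fitted and a replicate block. The number of arrays, 2 per group, limits the precision.

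Genes were named from the platform annotation where a probe set had 1 symbol (20832). Of 283 entries in 15 lists, 239 were on the array, each read on its brightest probe set. Named genes are the 4 members, their closest relatives, up to 3 genes of lowest whole prostate p per list, the 3 most alike, the nearest tested neighbours and the genes next in rank; Npy was named after its value was seen, as the highest of its list. The members and lists were chosen with earlier results of these data known. Upstream sequences were found for 4 of 4 genes in a RefSeq table of GRCr8 and compared with BLAST 2.17.0 (E-value under 1e-05). Python 3.11.15 and matplotlib 3.10.9 drew the plots. Replicate numbers did not pair the arrays (correlation of the deviations of same-numbered arrays -0.020 to 0.029).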

Additional observations from a re-analysis of the deposited data

Results flagged for a closer look

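For Ocm and Ldoc1 both whole prostate vinclozolin arrays lay above, and both epithelium vinclozolin arrays below, their controls. The share of all probe sets with this pattern was not counted. Taken singly, 26.1% lay apart with vinclozolin higher in whole prostate, and 39.4% lay apart in either direction in epithelium. The epithelium difference minus the whole prostate difference was -2.62 for Ocm and -2.55 for Ldoc1. This difference helped to choose the genes, so it was not tested here.

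The limma test of that same difference (epithelium minus whole prostate), which called 63 of 21729 probe sets (0.29%), was read for 55 genes named from the lists, the relatives and the neighbours, not for those named by rank or likeness. The list genes had been named by their whole prostate p, and the whole prostate difference is part of this contrast. The count among them therefore cannot be set against the 0.29%. It passed for 6 of the 55: the protease gene Usp18 (-2.45 ± 0.27, adjusted p = 0.0295), the muscle genes Tnnc2 (1.64 ± 0.15, 0.0177) and Myl1 (2.55 ± 0.22, 0.0138), and the secretory genes Msmb (2.25 ± 0.16, 0.00784), Svs4 (1.75 ± 0.17, 0.0206) and Semg1 (1.36 ± 0.17, 0.0472).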

How the results depend on the processing

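The 4 genes were chosen for being higher in whole prostate vinclozolin, so a positive sign there was given by the choice. In whole prostate the difference of each of the 4 genes stayed positive under all 14 settings tried for it. It ran from 1.97 to 2.24 for Ocm, 2.12 to 2.34 for Ldoc1, 1.67 to 2.11 for Uchl1 and 1.44 to 2.63 for Tmem59l. With a pseudocount of 1 it was 2.24 for Ocm, 2.11 for Uchl1 and 2.63 for Tmem59l, and 0.70 for Uchl1 in epithelium. With a pseudocount of 64 it was 1.97 for Ocm, 2.12 for Ldoc1, 1.67 for Uchl1 and 1.44 for Tmem59l, and 0.52 for Uchl1 in epithelium, where median centring gave 0.59. With 1 array left out the whole prostate differences ran from 2.11 to 2.22 for Ocm, 2.14 to 2.34 for Ldoc1, 1.87 to 2.07 for Uchl1 and 1.96 to 2.32 for Tmem59l. Those in epithelium then ran from -0.55 to -0.36 for Ocm, -0.41 to -0.21 for Ldoc1, 0.60 to 0.70 for Uchl1 and -0.28 to 0.23 for Tmem59l, whose sign is thus not fixed.

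The count of all probe sets called in whole prostate and in epithelium was 379 and 2 as reported, 235 and 0 with a pseudocount of 1, 1133 and 66 with 64, 200 and 0 without the filter, 1814 and 205 with a trended robust prior, 65 and 0 with only the 4 arrays compared, and 177 and 0 with the replicate block. With median centring 1 was called in epithelium. With 1 array left out, the count was 24 to 225 in whole prostate, 0 to 0 in epithelium, and 2648 to 5789 between the control groups (6051 with all arrays). In whole prostate each of the 8 arrays lowered the count by over 1.5 times, most of all whole prostate control replicate 2 (24) and replicate 1 (32); between the control groups these same arrays did (2716 and 2648). Fewer arrays and residual degrees of freedom come with the settings that leave arrays out. The replicate block also lowers the residual degrees of freedom. The part of this in the counts was not tested, nor was the cause for the other settings. Counts of 0 by limma stand beside 2471 probe sets with an unadjusted p under 0.05 in epithelium. List medians in whole prostate changed sign without the filter for neurons (-0.02), neuroendocrine cells (0.14) and EF-hand genes (-0.06), with the values as deposited for luminal genes (0.03), and with median centring for ubiquitin genes (-0.02). The dimness of Tmem59l outside whole prostate vinclozolin limits its fold, which is 7.17 from deposited intensities and 4.49 from the log2 difference.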
